A study of Mus musculus with 14 samples.

Results

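The cytochrome P450 genes of this mouse diet experiment were taken as every probe whose gene symbol in the array annotation starts with Cyp followed by a digit, and Cyp2e1 was chosen by its intensities on the muscle arrays of the 3 diets as the gene to lead with. This gave 101 of 25697 probes, for 75 of 16593 genes with a symbol. The arrays were Illumina Sentrix Mouse-8 v2 BeadChips, on which the brightness of the beads of a probe (its intensity, in arbitrary units) reports a transcript. Skeletal muscle was hybridized on 8 arrays, from mice fed β-lapachone (βL, 0.066% of the diet, 3 arrays), mice kept at 70% of the food of the controls (calorie restriction, CR, 3 arrays) and untreated controls (C, 2 arrays). Brain cortex of the same diets was hybridized on 6 arrays, 2 for each diet. All mice were male C57BL/6 on these diets from 13 months of age, so no young group is compared here, and the sources used here do not name the muscle. Whether each array had a mouse of its own is not stated. The p-values below therefore describe the spread among arrays, which may be technical. Since whole tissue was used, fewer cells of a type and less RNA per cell cannot be told apart.

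Cytochromes P450 are heme enzymes that insert an oxygen atom into lipids, steroids, drugs and solvents. They take electrons from P450 reductase and cytochrome b5 at the endoplasmic reticulum, or from ferredoxin in mitochondria. The liver holds most of the drug-metabolising forms, whereas the sterol-handling forms work in many tissues. CYP2E1, the form that oxidises ethanol, acetone and other small molecules, is known mainly from liver and rises there in fasting and ketosis. CYP46A1 is known as the neuronal enzyme that hydroxylates cholesterol so that it can leave the brain.

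The stretch of 250 bases before the transcription start was read for 56 of the 75 genes (RefSeq, GRCm38.p6). They are shown for Cyp2e1 as the lead gene of muscle, for Cyp46a1 as the gene with the widest difference towards brain, for Cyp51 as a gene measured in both tissues, and for Cyp2c70 as the brightest of the genes found on 1 control muscle array alone. Capitals mark TATAAA and GGGCGG, searched on both strands, so that TTTATA and CCGCCC count as matches.
Cyp2e1, chr7:140763569-140763818, forward strand: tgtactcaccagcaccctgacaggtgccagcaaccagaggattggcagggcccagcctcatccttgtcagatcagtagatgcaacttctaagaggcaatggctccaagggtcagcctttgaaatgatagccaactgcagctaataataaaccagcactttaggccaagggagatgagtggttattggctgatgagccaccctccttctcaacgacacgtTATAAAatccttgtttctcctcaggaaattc
Cyp46a1, chr12:108334066-108334315, forward strand: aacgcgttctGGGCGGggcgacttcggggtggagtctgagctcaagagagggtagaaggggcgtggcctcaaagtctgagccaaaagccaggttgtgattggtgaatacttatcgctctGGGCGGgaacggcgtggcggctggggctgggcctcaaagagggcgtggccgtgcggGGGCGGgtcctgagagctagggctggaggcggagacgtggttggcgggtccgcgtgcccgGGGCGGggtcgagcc
Cyp51, chr5:4104698-4104947, reverse strand: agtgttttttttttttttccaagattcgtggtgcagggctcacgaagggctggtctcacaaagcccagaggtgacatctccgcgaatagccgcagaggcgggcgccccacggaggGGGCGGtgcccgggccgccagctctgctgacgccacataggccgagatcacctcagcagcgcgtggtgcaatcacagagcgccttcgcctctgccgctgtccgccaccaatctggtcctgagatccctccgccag
Cyp2c70, chr19:40187287-40187536, reverse strand: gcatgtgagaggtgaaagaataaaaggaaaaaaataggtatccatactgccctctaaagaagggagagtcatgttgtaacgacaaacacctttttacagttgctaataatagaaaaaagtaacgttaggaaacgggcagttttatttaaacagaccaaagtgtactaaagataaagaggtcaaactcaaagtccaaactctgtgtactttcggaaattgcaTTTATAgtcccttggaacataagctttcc
The TATAAA of Cyp2e1 began 31 bases before the start and that of Cyp2c70 began 29 bases before it. Cyp46a1 had 4 GGGCGG matches and 23 CpG, Cyp51 had 1 match and 20 CpG, Cyp2c70 had 4 CpG and Cyp2e1 had 2 CpG.

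A probe was called detected where its detection p, the comparison with the negative control beads of the array, was under 0.05, and a gene was kept for testing where 1 of its probes was so in 2 or more arrays of that tissue. In brain 20 of the 75 P450 genes passed, or 26.67%, against 60% of all genes. In muscle 18 passed, or 24%, against 53.63% of all genes. Of the 75 genes, 12 passed in both tissues, 8 in brain alone and 6 in muscle alone, and 49 passed in neither. The largest role class, the xenobiotic and drug-metabolising families, had 44 genes, of which 6 passed in brain, 7 in muscle and 29 were detected on no array at all. Genes detected on no array numbered 37 and included Cyp1a1 and Cyp1a2, the textbook targets of the aryl hydrocarbon receptor, and Cyp7a1, the rate-limiting enzyme of bile acid synthesis.

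Of the 13 genes of the Cyp4 family, which hydroxylates fatty acids and eicosanoids, 5 passed in brain and 6 in muscle. Of the 7 sterol and bile acid enzymes 5 passed in brain and 3 in muscle. Of the 5 steroid hormone enzymes 2 passed in brain and 1 in muscle, and of the 5 enzymes of vitamin D and retinoic acid 1 passed in brain and 0 in muscle. The genes of both tissues were Cyp1b1, Cyp2d22, Cyp2j9, Cyp2s1, Cyp4f13, Cyp4f16, Cyp4v3, Cyp7b1, Cyp11b2, Cyp20a1, Cyp27a1 and Cyp51. Those of brain alone were Cyp2d40, Cyp3a13, Cyp4f14, Cyp4f15, Cyp11a1, Cyp26b1, Cyp39a1 and Cyp46a1. Those of muscle alone were Cyp2a5, Cyp2e1, Cyp2f2, Cyp4b1, Cyp4f18 and Cyp4f39.

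Several genes passed near the limit. Cyp39a1, an oxysterol hydroxylase, was detected on 2 of 6 brain arrays, both of the βL diet. Cyp3a13, a drug-metabolising form, was detected on 2 of 6 brain arrays and Cyp26b1, which breaks down retinoic acid, on 3 of 6. Cyp2a5, a coumarin hydroxylase, and Cyp11b2, the aldosterone synthase, were each detected on 2 of 8 muscle arrays. The array held 2 probes for Cyp11b2, 3 for Cyp3a13 and 4 for Cyp2a5. For each of these genes a single probe was detected, and the rest on no array of either tissue. Just outside the limit lay Cyp24a1, which breaks down vitamin D, and Cyp4x1, each detected on 1 brain array. With a detection p under 0.01 required, 14 genes passed in brain and 14 in muscle.

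**Figure D1:**
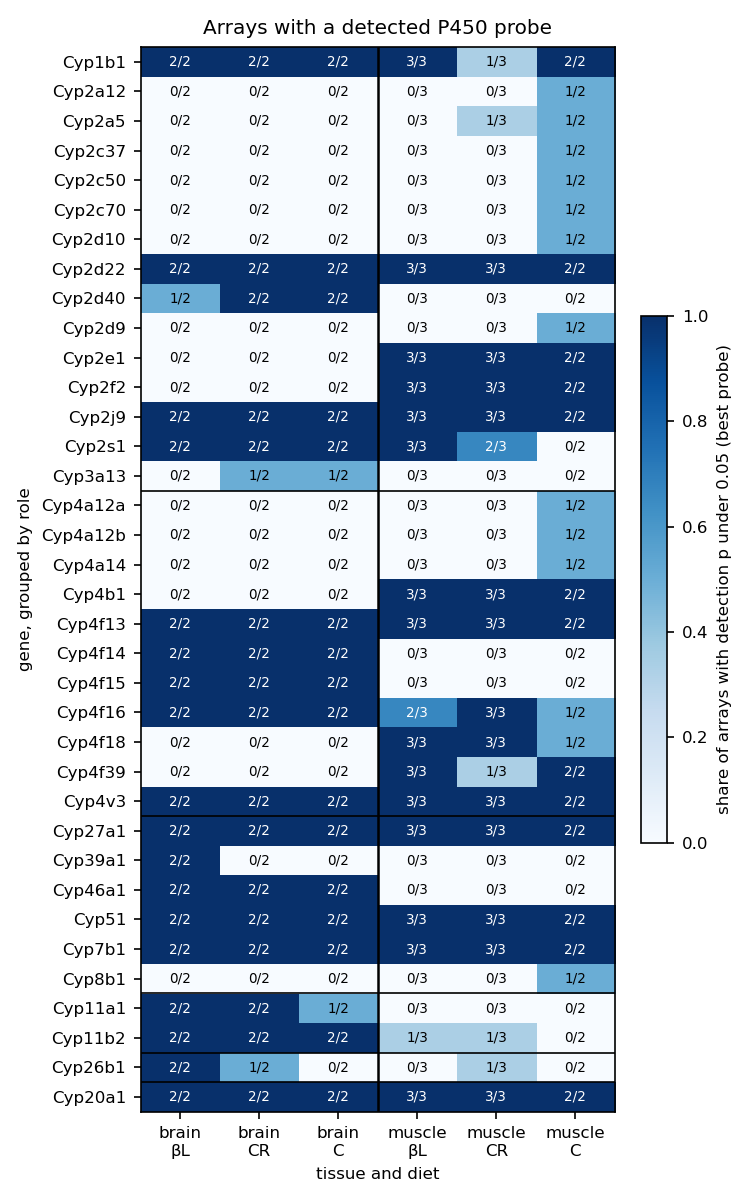
Each row is a P450 gene that passed in a tissue or was detected on 1 control muscle array alone, each column a tissue and diet, and each cell gives the number of arrays with a detected probe over the number hybridized (the best probe of the gene). Horizontal lines separate the role classes, from xenobiotic forms at the top to the unassigned Cyp20a1 at the bottom, and 10 genes have their only filled cell under muscle C.

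The bases before the start differed between these classes in composition. Genes that passed in both tissues had a median of 12 CpG (9 promoters with an entry, 2 to 20 CpG), against a median of 6 over 27025 genes. The 6 genes of muscle alone had a median of 2.5 CpG, and the 7 promoters of brain alone had a median of 3. No such median was taken over all genes that passed in both tissues. TATAAA was found in 0 of the 9 promoters of genes that passed in both tissues, in 2 of the 6 of muscle alone and in 2 of the 7 of brain alone. It was found in 39.3% of the 56 P450 promoters, against 13% of all promoters. GGGCGG was found in 28.6% of the P450 promoters, against 32.9% of all. These are letter matches, and no binding was measured.

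Muscle control replicate 1 stood apart and bears on much of what follows. On it 28 P450 probes were detected, against 16 to 20 on each of the other 7 muscle arrays. The additional ones were forms known from liver, 11 probes for 10 genes: Cyp2a12, Cyp2c37 by 2 probes, Cyp2c50, Cyp2c70, Cyp2d9, Cyp2d10, Cyp4a12a, Cyp4a12b, Cyp4a14 and Cyp8b1. Cyp2c70, a mouse bile acid hydroxylase, had an intensity of 263 there and of 121 to 140 on the other 7 muscle arrays. Cyp2c50 had 256 there against 118 to 143, and the first Cyp2c37 probe had 247 there against 110 to 140. Cyp8b1, the enzyme that directs bile acid synthesis to cholic acid, had 207 there against 139 to 156. The other 7 probes lay between 176 and 236 on this array, and at the limit of detection for Cyp4a12a and Cyp4a12b (detection p 0.0464 each). Members of the Cyp2c, Cyp2d and Cyp4a families are close copies of each other, so which member a probe reports is uncertain.

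The hepatocyte markers moved in the same way. On control replicate 1, 14 of the 19 hepatocyte markers on the array were detected, with a summed intensity of 7732 after background correction. On the other 7 muscle arrays 0 or 1 of them was detected, with sums of 538 to 571. Alb, Apoh, Cps1, Fgb and Tat were not detected on control replicate 1. This array also had the lowest mean correlation with the other muscle arrays across probes, 0.9711 against up to 0.9839, and the lowest sum of slow-fibre genes, 2442 against 34970 to 195700. The part of liver RNA in any P450 difference was not tested, and a fold change over control is also given below without this array where leaving it out moved it by over 1.5 times or changed its sign.

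**Figure D2:**
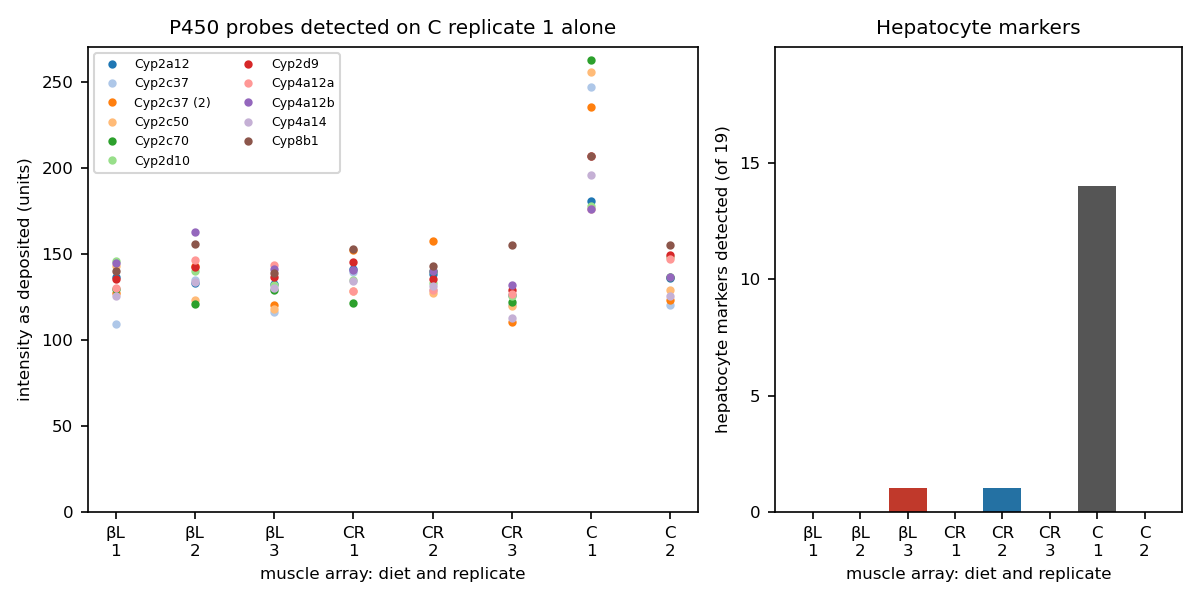
Left, the intensity as deposited of the 11 P450 probes detected on control (C) replicate 1 and on no other muscle array, for each of the 8 muscle arrays. Right, the number of 19 hepatocyte markers detected on the same arrays, which was 14 on C replicate 1 and 0 or 1 on the others.

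Cyp2e1 was detected on all 8 muscle arrays and on 0 of 6 brain arrays. Its intensity as deposited was 4130, 2096 and 1577 in βL muscle, 2043, 1596 and 2906 in CR muscle, and 1156 and 984 in control muscle. All 6 arrays of both diets lay above both control arrays, and the ranges of βL and CR overlapped. Over all genes tested in muscle, 11% lay so on βL and 9.25% on CR. On the normalised log2 scale Cyp2e1 averaged 11.07 ± 0.85 in βL muscle (SD, n = 3), 11.11 ± 0.46 in CR muscle (SD, n = 3) and 9.80 ± 0.09 in control muscle (SD, n = 2). The fitted log2 fold change was 1.27 (SE 0.44) for βL over control and 1.31 (SE 0.44) for CR over control, or 2.41-fold and 2.49-fold. For βL over CR it was −0.05 (SE 0.39). Cyp2e1 was chosen with these values known, so they are given as a description with no test.

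Leaving out 1 array at a time moved the Cyp2e1 difference of βL over control between 0.80, without βL replicate 1, and 1.64, without βL replicate 3. That of CR over control lay between 1.05, without CR replicate 3, and 1.50, without CR replicate 2. Without control replicate 1, the array with hepatocyte markers, the differences were 1.33 for βL and 1.38 for CR over control. On that array Cyp2e1 was at 1156, against 984 on the other control array. βL over CR changed sign and was 0.31 without βL replicate 3 and −0.52 without βL replicate 1.

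Genes of white adipocytes differed between the same arrays. Their summed intensity was 84630 to 104600 on the βL arrays, 57160 to 67600 on the CR arrays, and 27250 and 61660 on the control arrays, the lower on control replicate 1. The βL arrays had 12 to 13 of 15 markers detected, the CR arrays 12 to 13 and the control arrays 11 to 12, with Fabp4 and Retn at or below background on all 8. Of the 13 adipocyte genes tested, 13 had a log2 fold change above 0 on βL (median 1.43) and 13 on CR (median 0.90), both against the same controls, where the medians of all genes were −0.02 and 0.00. Without control replicate 1 these medians were 0.83 on βL and 0.44 on CR, with 13 and 11 of the 13 genes above 0. Across the 8 muscle arrays their Pearson r with Cyp2e1 ran between 0.41 for Lpl, lipoprotein lipase, and 0.88 for Agpat2, an acyltransferase of triglyceride synthesis. The part of fat cells in the Cyp2e1 difference was not tested.

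**Figure D3:**
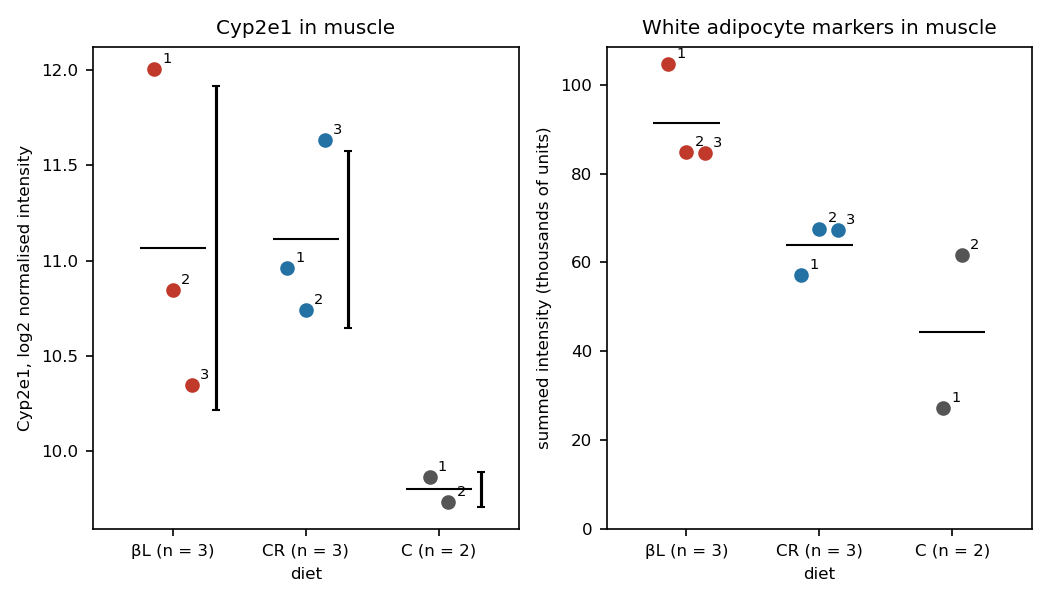
Left, the log2 normalised intensity of Cyp2e1 on each muscle array, numbered by replicate, with the mean (line) and SD (bar) of each diet. Right, the summed intensity of the white adipocyte markers on the same arrays, with the mean as a line. The sum was highest on βL replicate 1, the array with the highest Cyp2e1. It was lowest on control replicate 1, the control array with the higher Cyp2e1.

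The 5 genes most like Cyp2e1 over the 8 muscle arrays were Mfng, Acaca, Slc25a1, Defb26 and Myog. Mfng, a glycosyltransferase acting on Notch, had a Pearson r of 0.96 and a Spearman rho of 0.93. Acaca, acetyl-CoA carboxylase of fatty acid synthesis, had 0.95 and 0.93, and Slc25a1, the mitochondrial citrate carrier, had 0.94 and 0.88. Defb26, a β-defensin, had 0.94 and 0.95, and Myog, the myogenic factor myogenin, had 0.94 and 0.93. Without the 2 arrays farthest from the median of Cyp2e1, Pearson's r was 0.86 to 0.98 for these genes. The arrays share their diets and their RNA, and the 5 were the highest of 8898 genes, so these values are a description.

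In muscle, 0 of the 18 P450 genes passed an adjusted p of 0.05 in limma for βL over control (0.0225% of all genes passed), 0 for CR over control (0% of all genes) and 0 for βL over CR (0.0225% of all genes). At an unadjusted p under 0.05, βL over control had 7 of the 18 genes, against 10.4% of all genes, namely Cyp2e1, Cyp2s1, Cyp4f13 and Cyp4f18 higher and Cyp7b1, Cyp20a1 and Cyp27a1 lower. CR over control had 3 of 18, against 5.12% of all genes, with Cyp2e1 higher and Cyp7b1 and Cyp20a1 lower. βL over CR had 4 of 18, against 9.62% of all genes, with Cyp1b1, Cyp4f18 and Cyp4f39 higher and Cyp27a1 lower. Cyp2e1 stands in these counts as the gene chosen for its values, and Cyp2s1 passed the filter by arrays of the 2 diets alone, so its direction against control was set by the filter. The median log2 fold change of the 18 genes was 0.02 for βL over control and 0.00 for CR over control, against −0.02 and 0.00 over all genes, and 0.12 and 0.00 over 17 genes without control replicate 1. Both comparisons use the same 2 control arrays. Arrays of 2 diets often do not overlap with so few arrays. Over all genes, the βL arrays all lay above both controls for 11% and below them for 12.5%. For the CR arrays these shares were 9.25% and 9.78%. The βL arrays all lay above the CR arrays for 7.5% of all genes and below them for 8.29%.

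Among the xenobiotic forms of muscle besides Cyp2e1, Cyp2s1, an enzyme of retinoids and eicosanoids, was detected on 3 of 3 βL, 2 of 3 CR and 0 of 2 control arrays. Its intensity was 176, 172 and 241 in βL muscle, 158, 167 and 158 in CR muscle, and 156 and 162 in control muscle. The values of both diets ran from just above background, and only βL replicate 3 stood clear. Its level in control muscle was not well above background, so βL exceeded it at least 1.41-fold, and at least 1.07-fold without βL replicate 3, as a description with no test. No fold is given for CR, whose level lay at that background.

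Cyp1b1, which oxidises oestrogens and procarcinogens and is known from vessels and stroma, set βL apart from CR. Its intensity was 191, 191 and 204 in βL muscle, 166, 146 and 155 in CR muscle, and 178 and 181 in control muscle, and only 1 of the 3 CR arrays was above background. The log2 difference of βL over CR was 0.74 (SE 0.17, limma adjusted p = 0.283), with all βL arrays above all CR arrays. Cyp2d22 (the mouse form closest in role to the human debrisoquine hydroxylase) and Cyp2j9, an arachidonic acid hydroxylase, differed by at most 0.08 in size on the log2 scale in any muscle comparison. Without control replicate 1 they were lower on both diets, Cyp2j9 at −0.46 for βL and −0.48 for CR over control and Cyp2d22 at −0.23 and −0.25. Cyp2f2, known for activating naphthalene in airway cells, ranged from 190 to 308 over the 8 muscle arrays with no order by diet. Its log2 fold change over control was −0.28 for βL and 0.31 for CR, and 0.26 and 0.85 without control replicate 1. Cyp2a5 was above background on control replicate 1 (199) and CR replicate 1 (165) alone.

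The Cyp4 family held the widest differences of the tested members. Cyp4f18, which inactivates leukotrienes in myeloid cells, had an intensity of 316, 205 and 256 in βL muscle, 193, 174 and 176 in CR muscle, and 177 and 170 in control muscle. The 3 βL arrays were the highest, except that the lowest of them lay at a normalised log2 level of 6.24 against 6.25 for CR replicate 1. The log2 fold change was 1.40 for βL over control (SE 0.32, limma adjusted p = 0.347) and 0.85 for βL over CR (SE 0.29, limma adjusted p = 0.42). Without βL replicate 1 it was 1.08 over control, and without control replicate 1 it was 1.44. A second probe of the gene, detected on 3 of 8 muscle arrays, gave 0.31 (SE 0.28) for βL over control.

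Macrophage and red cell markers moved beside Cyp4f18. The 4 macrophage markers on the array summed to 2245 to 6301 in βL muscle, 1007 to 1917 in CR muscle, and 1094 and 2353 in control muscle, and all 4 were detected except on 1 CR array, which had 3. The 2 red cell markers on the array summed to 43960 to 59870 in βL muscle, 19660 to 27470 in CR muscle, and 17570 and 22750 in control muscle. Their part in the Cyp4f18 difference was not tested.

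Cyp4f13 and Cyp4f39 are neighbours of Cyp4f14, Cyp4f15 and Cyp4f16 on one chromosome, whereas Cyp4f18 lies on another. Cyp4f13 had an intensity of 490, 471 and 417 in βL muscle, 354, 319 and 363 in CR muscle, and 370 and 315 in control muscle. All βL arrays were above both controls, with a log2 fold change of 0.61 (SE 0.18, limma adjusted p = 0.368). Cyp4f39, the mouse counterpart of an enzyme that makes acylceramides in human skin, had 380, 301 and 354 in βL muscle, 149, 229 and 151 in CR muscle, and 340 and 209 in control muscle. Only 1 of 3 CR arrays was above background, and βL over CR was 1.89 on the log2 scale (SE 0.50, limma adjusted p = 0.312). Of the control arrays, 1 lay within the range of βL and the other within that of CR. The log2 fold change of Cyp4f39 over control was 0.69 for βL and −1.19 for CR, and 1.33 and −0.55 without control replicate 1. Cyp4b1, Cyp4f16 and Cyp4v3 differed by at most 0.24 in size on the log2 scale in any muscle comparison. Without control replicate 1, however, Cyp4f16 was −0.54 for βL and −0.42 for CR over control, and Cyp4v3 was 0.12 and −0.0006.

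Of the sterol enzymes, Cyp27a1, the mitochondrial hydroxylase of the sterol side chain, was lowest on the βL arrays by its normalised levels. Its log2 level was 10.28, 10.61 and 10.19 in βL muscle, 10.77, 10.99 and 10.75 in CR muscle, and 11.22 and 10.71 in control muscle. The log2 fold change was −0.60 for βL over control (SE 0.20, limma adjusted p = 0.384) and −0.47 for βL over CR (SE 0.18, limma adjusted p = 0.461). Without control replicate 1, the higher control, βL over control was −0.35. CR over control was −0.13, and 0.13 without that array. The 3 probes of Cyp27a1 gave −0.60, −0.59 and −0.43 for βL over control.

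Cyp7b1, which hydroxylates oxysterols and steroid precursors, had 188, 183 and 220 in βL muscle, 196, 170 and 194 in CR muscle, and 255 and 227 in control muscle. Every array of both diets was below both controls, with a log2 fold change of −0.69 for βL (SE 0.26, limma adjusted p = 0.407) and −0.61 for CR (SE 0.26, limma adjusted p = 0.938). Cyp20a1, a form whose substrate is not known, showed the same order with 177, 187 and 186 in βL muscle, 182, 176 and 182 in CR muscle, and 225 and 226 in control muscle. Its log2 fold change was −0.74 for βL (SE 0.14, limma adjusted p = 0.265) and −0.54 for CR (SE 0.14, limma adjusted p = 0.932). Cyp51, the demethylase of cholesterol synthesis, differed by at most 0.09 in size on the log2 scale in any muscle comparison, and Cyp11b2 was at 139 to 187 over the muscle arrays.

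**Figure D4:**
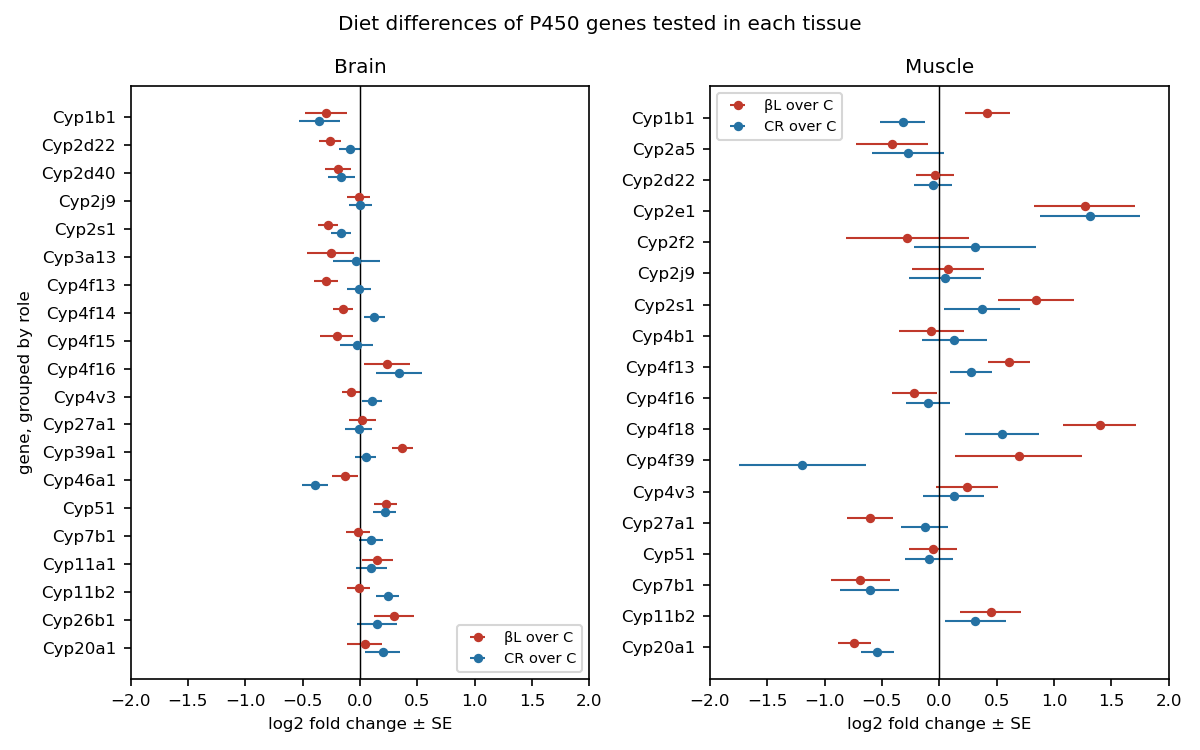
Fitted log2 fold changes with their SE for each P450 gene tested, in brain (left, 20 genes) and muscle (right, 18 genes), for βL over C and for CR over C, which share the control arrays. In muscle Cyp4f18 (1.40 on βL) and Cyp2e1 (1.27 on βL and 1.31 on CR) lie farthest to the right, and the brain values lie between −0.39 and 0.37.

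In brain, 0 of the 20 P450 genes passed an adjusted p of 0.05 in limma for βL over control (0.331% of all genes passed), 0 for CR over control (0.231% of all genes) and 0 for βL over CR (0.281% of all genes). At an unadjusted p under 0.05 there were 4 of 20 for βL over control, against 8.73% of all genes, with Cyp39a1 higher and Cyp2d22, Cyp2s1 and Cyp4f13 lower. Cyp39a1 passed the filter by its βL arrays alone, so its direction here and against CR was set by the filter. CR over control had 2 of 20, against 8.15% of all genes, Cyp11b2 higher and Cyp46a1 lower. βL over CR had 4 of 20, against 9.36% of all genes, Cyp39a1 higher and Cyp4f13, Cyp4f14 and Cyp11b2 lower. The median log2 fold change of the 20 genes was −0.05 for βL over control and 0.03 for CR over control, against 0.00 and 0.00 over all genes. Over all genes, the βL arrays all lay above the controls for 19.8% and below them for 20.9%. For the CR arrays these shares were 19.1% and 18.6%. The βL arrays all lay above the CR arrays for 18.9% and below them for 21.3%.

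Cyp46a1, the cholesterol hydroxylase of neurons, had a normalised log2 level of 8.85 and 8.89 in βL cortex, 8.47 and 8.75 in CR cortex, and 8.97 and 9.03 in control cortex. All arrays of both diets were below both controls, a separation that 20.9% of all genes showed on βL and 18.6% on CR. The log2 fold change was −0.39 for CR over control (SE 0.11, limma adjusted p = 0.459), −0.25 without CR replicate 1, and −0.13 for βL over control (SE 0.11, limma adjusted p = 0.807). The 4 detected neuron markers summed to 27890 and 30840 in βL cortex, 25330 and 28720 in CR cortex, and 27350 and 27560 in control cortex.

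Cyp39a1 was above background on both βL arrays of cortex and on neither array of CR or control. Its intensity was 83.1 and 72.0 in βL cortex, 77.4 and 69.1 in CR cortex, and 106 and 68.4 in control cortex, and control replicate 1 was bright over all probes, with a median intensity of 127 against 79.9 to 92.0 on the other brain arrays. Both βL arrays had a detection p of 0.0401, close to the limit of a call. Another probe of Cyp39a1 was detected on no array of either tissue. Because Cyp39a1 was not well above background on the other arrays, βL over control and over CR has only a bound. That bound was 1.02-fold for each, as a description with no test. It lay at background, so no excess of βL is given. Choroid plexus markers differed between the same groups, with sums of 24610 and 27140 in βL cortex, 3533 and 3623 in CR cortex, and 11400 and 12710 in control cortex. The βL arrays had 4 of 4 of these markers detected, the CR arrays 2 and the control arrays 3. Macrophage markers summed to 2026 and 2149 in βL cortex, 2223 and 2384 in CR cortex, and 3077 and 3256 in control cortex, with 4 of 4 detected on every array. Red cell markers summed to 10690 and 11730 in βL cortex, 4294 and 4607 in CR cortex, and 5794 and 5853 in control cortex, with 2 of 2 detected on every array. Both marker lists thus separated all 3 diets without overlap. Endothelium markers, 2 or 3 of 4 of them detected, summed to 416.2 and 451.2 in βL cortex, 392.3 and 419.7 in CR cortex, and 464.5 and 498.5 in control cortex. The part of these cells in any P450 difference of cortex was not tested.

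Cyp4f13 had a log2 level of 7.78 and 7.71 in βL cortex, 8.14 and 7.91 in CR cortex, and 8.04 and 8.02 in control cortex. The βL arrays were the lowest, at −0.29 against control (SE 0.10, limma adjusted p = 0.503) and −0.28 against CR (SE 0.10, limma adjusted p = 0.491). Cyp4f14, its neighbour, was lower in βL than in CR cortex, at −0.28 (SE 0.09, limma adjusted p = 0.438). Cyp2s1 had 6.32 and 6.26 in βL cortex, 6.46 and 6.34 in CR cortex, and 6.57 and 6.56 in control cortex, and βL over control was −0.28 (SE 0.09, limma adjusted p = 0.444). Cyp2d22 was −0.26 for βL over control (SE 0.10, limma adjusted p = 0.503). Cyp11b2, whose adrenal product is aldosterone, was at 86.4 and 75.2 in βL cortex, 98.5 and 92.4 in CR cortex, and 120 and 86.3 in control cortex, close to background throughout.

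Cyp51 was 0.23 for βL (SE 0.10) and 0.21 for CR (SE 0.10) over control, with the arrays of both diets above the controls. Cyp1b1 was −0.30 for βL and −0.35 for CR over control, each with an SE of 0.18, with both CR arrays below the controls and βL overlapping them. Cyp2j9, Cyp7b1 and the brightest probe of Cyp27a1 differed by at most 0.11 in size on the log2 scale in any cortex comparison. The other 2 probes of Cyp27a1, detected on all 6 brain arrays, disagreed in sign for CR over control, at −0.37 (SE 0.12) and 0.22 (SE 0.13). Cyp4f15 was −0.20 and Cyp4v3 −0.08 for βL over control. Cyp4f16 was 0.24 for βL and 0.34 for CR over control (SE 0.20 each), with both CR arrays above the controls, whereas a second probe, detected on 4 of 6 brain arrays, gave −0.19 for βL and 0.16 for CR (SE 0.22 each). Cyp20a1 was 0.04 for βL over control (SE 0.15). Cyp11a1, the first enzyme of steroid synthesis, was 0.15 and Cyp2d40 was −0.19 for βL over control, both near background. Cyp26b1 was detected on 2 of 2 βL, 1 of 2 CR and 0 of 2 control arrays. Cyp3a13 was detected on 0 of 2 βL, 1 of 2 CR and 1 of 2 control arrays. The filter thus set the direction of these genes for βL over control, and no fold is given.

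Levels in the tissues were compared on all 14 arrays normalized together. Since slides are not given in the sources used here, tissue and slide cannot be told apart. Skeletal muscle markers were detected on every muscle array (4 of 4), and 4 of 5 neuron markers on every brain array and 0 on the muscle arrays. Of the 26 P450 genes tested, 16 passed between brain and muscle, against 82.8% of all genes. Cyp2e1 was chosen for its muscle values, and 8 others of the 16 were detected in 1 tissue alone, so that the filter set their direction: Cyp46a1, Cyp4f14 and Cyp4f15 in brain, and Cyp2a5, Cyp2f2, Cyp4b1, Cyp4f18 and Cyp4f39 in muscle. Of the 12 P450 genes that passed the filter in both tissues, 7 passed this test, against 83.2% of the 8089 such genes. Higher in brain were Cyp2j9, Cyp7b1 and Cyp51, and lower in brain were Cyp27a1, Cyp4v3, Cyp4f13 and Cyp1b1. Cyp1b1 lost its call with a replicate block (−0.39, limma adjusted p = 0.0902), and Cyp2a5 lost its call in several fits without 1 brain array. In muscle, Cyp2a5 was above background only on CR replicate 1 and on control replicate 1, the array with hepatocyte markers. Without control replicate 1 it did not pass the filter.

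Cyp46a1 had intensities of 411 to 617 on the 6 brain arrays and was detected on 0 of 8 muscle arrays, so brain exceeded muscle at least 7.60-fold. Likewise the excess in brain was at least 3.70-fold for Cyp4f15 and at least 3.35-fold for Cyp4f14, neither detected in muscle. These 3 bounds are a description with no test. Measured in both tissues, Cyp2j9 was 2.51 higher in brain on the log2 scale (SE 0.15), Cyp7b1 2.27 (SE 0.13) and Cyp51 2.22 (SE 0.10).

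In the other direction, Cyp27a1 had 184 to 226 in brain and 1373 to 2724 in muscle, a log2 difference of −3.80 (SE 0.10, limma adjusted p = 2.54e-12). Cyp2e1 had 52.5 to 98.6 in brain, below background, and 984 to 4130 in muscle, so muscle was at least 47.9-fold higher, as a description. Muscle was at least 4.84-fold higher for Cyp4b1, at least 3.76-fold for Cyp2f2, at least 3.60-fold for Cyp4f39, at least 2.55-fold for Cyp4f18 and at least 1.16-fold for Cyp2a5, which were all below background in brain, again with no test. Within the Cyp4f cluster of one chromosome, Cyp4f14 and Cyp4f15 were thus detected in brain alone and Cyp4f39 in muscle alone. Cyp4f13 was lower in brain, at −0.51 on the log2 scale (SE 0.09), and Cyp4f16 gave −0.17 (SE 0.18, limma adjusted p = 0.391). The other members not called lay between −0.18 for Cyp2d22 and 0.36 for Cyp2s1.

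**Figure D5:**
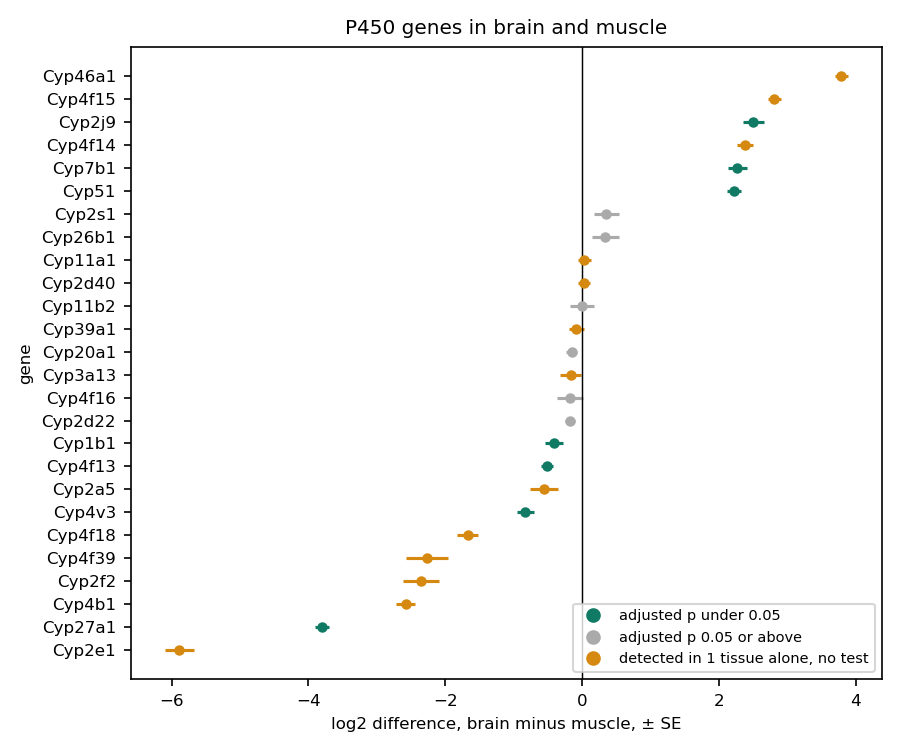
The log2 difference, brain minus muscle, with its SE for the 26 P450 genes tested, in order of size. Green points passed an adjusted p of 0.05 and grey points did not. Orange points are genes detected in 1 tissue alone, Cyp2e1 among them, given as a description, since they have only a bound in the other tissue.

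Diet effects were also compared between tissues, as the log2 fold change in brain minus that in muscle. Of the 26 P450 genes 0 passed the limma interaction for βL over control (0.0369% of all genes), 0 for CR over control (0.00924% of all genes) and 0 for βL over CR (0.0831% of all genes). At an unadjusted p under 0.05 there were 7 for βL over control, against 7.73% of all genes, namely Cyp1b1, Cyp2e1, Cyp2s1, Cyp4f13, Cyp4f18, Cyp20a1 and Cyp27a1, with Cyp4f18 at −1.89 (SE 0.39, limma adjusted p = 0.17) and Cyp20a1 at 0.79 (SE 0.21, limma adjusted p = 0.319). CR over control had 3, against 4.77% of all genes, namely Cyp2e1, Cyp4f18 and Cyp20a1, and βL over CR had 4, against 6.98% of all genes. Cyp2e1 stands here by its choice. Cyp4f18 and Cyp2e1 were below background in brain, so no diet effect was measured for them there. The −1.89 of Cyp4f18 is larger in size than its log2 fold change within muscle, 1.40 for βL over control. It thus also takes in brain values below background, and its size was not measured. Cyp2s1 was below background in control muscle.

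Genes that work with P450 enzymes were read from lists. Of 6 electron partners measured in muscle 0 passed for βL or CR over control, with medians of −0.01 and 0.04 against −0.02 and 0.00 over all genes (0.005 and −0.04 without control replicate 1). Cyb5a, cytochrome b5, was 0.70 for βL (SE 0.21, limma adjusted p = 0.368) and 0.18 for CR over control (0.07 for CR without control replicate 1). Of 11 heme enzymes 0 passed, and Alas2, the red cell form of the first heme enzyme, was 2.87 for βL over control (SE 0.54, limma adjusted p = 0.241). Alas2 is itself among the red cell markers, so the red cell sums given above contain it. Alas1, the form used outside red cells, was −0.15 for βL and −0.09 for CR over control, and 0.13 and 0.19 without control replicate 1. In cortex Alas2 was 1.61 higher in βL than in CR (SE 0.15, limma adjusted p = 0.00921).

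Of 14 regulators of P450 genes measured in muscle 0 passed. Dbp, a clock-controlled factor known to act on P450 genes in liver, was 1.32 for βL (SE 0.52, limma adjusted p = 0.435) and 1.34 for CR over control (SE 0.52, limma adjusted p = 0.932), but 0.17 for βL and 0.19 for CR without control replicate 1. Pparg, the adipocyte receptor and also an adipocyte marker here, was 1.49 for βL and 1.02 for CR, and 1.08 and 0.62 without that array. Of 10 other enzymes around CYP2E1 0 passed, with medians of 0.40 for βL and 0.20 for CR over control, which were 0.12 and 0.00 without control replicate 1. Cat, catalase, was 0.75 for βL (SE 0.17, limma adjusted p = 0.347) and 0.34 for CR, and 0.58 and 0.16 without that array. Adh1, alcohol dehydrogenase, was 0.37 for βL and 0.84 for CR, and 0.03 and 0.50 without that array. Aldh2, which clears acetaldehyde, was 0.43 for βL and 0.15 for CR, and 0.37 and 0.09 without that array. Nqo1, the quinone reductase on which βL acts, was 0.18 for βL and 0.12 for CR over control, each with an SE of 0.18, and −0.04 and −0.10 without that array.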

How the data were processed

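RNA of muscle (8 arrays) and brain cortex (6 arrays) was grouped by tissue and diet from the labels, which say brain, while the design text of the series says cortex. Per the methods, total RNA was amplified to biotin-labelled cRNA. The probe intensities deposited by the authors are BeadStudio 3.0 values before normalization (BeadStudio is also named in the submitters' processing notes), and each has a detection p-value deposited beside it. The authors' normalized intensities, for which the methods name quantile normalization, were deposited in a second table and used only as an alternative. Their scale is linear, with column medians of 129.3 to 130, and they matched a quantile normalization of all 14 arrays to within 1.433.

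Here the background was modelled by normexp (offset 16), which took the negative controls from the detection p-values, before quantile normalization within the tissue and log2 (limma 3.58.1, R 4.3.3). The offset holds down fold changes of dim genes. A probe stayed in if 2 or more arrays of its tissue had a detection p under 0.05, and the brightest probe stood for a gene, giving 8898 genes to test in muscle and 9956 in brain. Of all probes, 23978 had 1 symbol, 0 had several and 1719 had none. Muscle arrays had median intensities of 150 to 165 with 43.3% to 45.9% of probes detected. Brain arrays had 79.9 to 127 with 53.9% to 55.4% detected. The number of arrays limits the precision.

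For each tissue 1 fit held all 3 diets (lmFit, eBayes), with Benjamini-Hochberg adjustment over all genes tested and a call at an adjusted p under 0.05. Tissues, and the difference of diet effects between tissues, were tested on all 14 arrays normalized together (10827 genes). A gene below background on all arrays of a group has a fold that is a bound. Each dim array then entered at its probe's signal or at the lowest detected signal, whichever was higher. Summed marker intensities are of background-corrected normalised values. The steps were tested on simulated data. All genes that passed the filter are named, with those detected on fewer arrays. The members, the gene lists and the choice of Cyp2e1 were made with earlier results of these data known. Coordinates and sequences are from RefSeq (GRCm38.p6), by the first listed start of a gene.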

Additional observations from a re-analysis of the deposited data

Results flagged for a closer look

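In 4 cases the arrays of a diet all lay on one side of the controls in brain and all on the other side in muscle. These were 2 of the 12 P450 genes that passed the filter in both tissues for each diet, against 5.34% of the 8089 such genes for βL and 3.70% for CR over control. Cyp2s1, counted for each diet, was lower in brain and higher in muscle on both. Its direction against control in muscle was set by the filter. The fitted difference of its log2 fold changes, brain minus muscle, was −1.30 for βL and −0.68 for CR over control, but its muscle control arrays were not above background, so no size was measured. Cyp4f13 was lower on βL in brain and higher on βL in muscle, a difference of −0.88 (SE 0.22, limma interaction adjusted p = 0.283). Cyp7b1 was lower on CR in muscle and slightly higher in brain, a difference of 0.70 (SE 0.33, limma interaction adjusted p = 0.995). None of these passed the adjusted test.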

How the results depend on the processing

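The count of P450 genes called between diets was 0 in all 6 comparisons of muscle and brain under every alternative run: no background correction, the authors' normalized values, an offset of 50, all 14 arrays normalized together, no filter, a detection p under 0.01, every probe on its own, array weights, only the groups compared, the methods' t-test, a replicate block and leaving out each array. Among the P450 genes with an unadjusted p under 0.05, Cyp4f18 for βL over control in muscle came nearest to a call. Its lowest run lay at the edge of the threshold. Between brain and muscle, 26 genes were called with no filter on dim probes, which tests more genes, against 16, and 15 to 17 with 1 array left out. Of 764 values of single results 755 kept their direction and side of the threshold. Runs in which a gene no longer passed the filter gave no value and are not among the 764. They include Cyp2a5 without muscle control replicate 1 and Cyp39a1 in brain without either βL array. Cyp2e1 of βL over CR in muscle, given with no test, changed sign in 3, at 0.21 without CR replicate 3, 0.06 without βL replicate 2 and 0.31 without βL replicate 3. The 6 that lost significance were Cyp1b1 between tissues under the replicate block (−0.39, adjusted p = 0.0902) and Cyp2a5 between tissues without each of 5 brain arrays (−0.55 to −0.51). Same-numbered muscle arrays deviated together with correlations of −0.21 to 0.19, and differently numbered ones with −0.26 to 0.21. In brain the ranges were −0.11 to 0.18 and −0.18 to 0.11. Where a group has 2 arrays their deviations mirror each other, so these values cannot decide whether the numbers pair the arrays. With the replicate block the count of calls was 0 in each diet comparison, as it was without the block. A slide block was not run, since no slides are given in the sources used here. With 2 or 3 arrays a group and intensities near background for many members, small differences were not detectable. The list values without muscle control replicate 1, the bound of Cyp2s1 without βL replicate 3 and the count over genes kept in both tissues were added after seeing the data.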
